A study of Bos taurus with 5 samples.

Results

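The genes described here are PTGS2, TNFAIP6, VCAN and FOS, which are known to be switched on in the ovarian follicle by the preovulatory gonadotropin surge. They were chosen by name, with the probe whose accession is the bovine RefSeq mRNA of the gene, and each had 1 probe, so there were 4 probes of the 10163 single probes on the array. RNA extracted from the wall of the follicle (theca interna and granulosa cells together) was measured in 3 largest follicles (F1) and 2 second-largest follicles (F2) of pregnant Japanese Black cows, with 1 follicle on each one-color array. The labels name no treatment, and the phase of the follicular wave was not fixed at collection. Stroma around the follicle and theca externa had been removed. The ovaries came from 4 cows, and 2 of them yielded a follicle of each rank, which means that 1 F2 or more had an F1 from its own cow on the arrays; the labels do not say which, and the tests treat the follicles as independent. Signals are given relative to the median of 100 GAPDH spots on the same array, and a signal is called measured where the extraction software flagged the spot as well above background.

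In a follicle that receives the surge of luteinizing hormone, mural granulosa cells start a short program of transcription that leads to ovulation. FOS, a subunit of the AP-1 transcription factor, belongs to the immediate early genes that come first in such programs. PTGS2 is the inducible cyclooxygenase that makes the precursor of the prostaglandins, and TNFAIP6 is a secreted protein that links hyaluronan to proteins in the expanding matrix around the oocyte. VCAN, or versican, is a large proteoglycan that binds hyaluronan and is cleaved by ADAMTS proteases near ovulation. All of these genes also respond to other signals, and the surge at the same time is known to lower the genes of estradiol synthesis and the gonadotropin receptors.

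What each array measured was the binding of labelled cRNA to a 60-base probe of each gene. The start of 3 probes and the whole TNFAIP6 probe are given 5′ to 3′ to show what was hybridized, because every value below rests on 1 such probe per gene.
PTGS2 (NM_174445, first 30 bases): tgttaaatatctgaatgactgaatctggga
VCAN (NM_181035, first 30 bases): ccgaaggtggcaagaatcaaggcgctgatc
FOS (NM_182786, first 30 bases): cttccctcgagggttcccatagacctaggg
TNFAIP6 (NM_001007813, all 60 bases): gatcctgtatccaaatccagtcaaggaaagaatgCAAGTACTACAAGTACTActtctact
Capitals in the TNFAIP6 probe mark a unit of 9 bases, CAAGTACTA, that stands 2 times in a row. GC content was 35% in the PTGS2 probe, 38.3% in TNFAIP6, 45% in VCAN and 55% in FOS, against a median of 43.3% over all probes. The longest run of bases shared with any other probe of the array was 13 for PTGS2 and VCAN and 11 for TNFAIP6 and FOS. No second probe on the array therefore repeated the sequence of one of them. An unnamed probe elsewhere in the same transcript would not be found in this way.

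Across the arrays, between 5465 and 5855 probes were well above background, and the lowest such signal lay between 0.0124 and 0.0208 of the GAPDH median. All 5 arrays were scanned on 1 day and lay on 5 slides, so a slide cannot be told apart from a follicle. Of the 6 granulosa markers with a probe, all were measured in the F1, and their summed signal was 173 to 237 in the F1 against 6.84 and 6.86 in the F2. All 6 are on the study's list of genes relatively high in the F1, chosen on these same arrays. The separation of their sum is therefore not independent evidence. INHA and INHBA were saturated on 3 arrays each and FST on 2. The 6 theca markers summed to 69.3 to 105 and to 30.1 and 33.3, but INSL3, saturated on 2 arrays, carried that difference. Without INSL3 the theca sums were 30.1, 27.0 and 34.4 for the F1 and 27.8 and 26.4 for the F2, which overlap. These sums consist mostly of STAR, CYP11A1 and HSD3B1, and the single genes differed. CYP17A1 had 1.68, 2.56 and 3.11 in the F1, against 0.146 and 0.163 in the F2. CYP11A1 was also higher in every F1, and LHCGR was measured only in the F1. STAR had the higher signal in both F2, and HSD3B1 overlapped. The 4 leukocyte markers with a probe summed to 0.873 to 0.958 among the F1 and to 1.35 and 1.61 among the F2, and the 6 endothelial markers to 0.157 to 0.250 and to 0.763 and 1.11. SELP, a gene that the study chose on these arrays, carried the endothelial difference: without it the sums were 0.120, 0.166 and 0.113 for the F1 and 0.127 and 0.249 for the F2, which overlap. Without the leading gene of each list, the granulosa, leukocyte and stromal sums still did not overlap between the groups; these sums were added after the data were seen. Among the 4 stromal markers the sums were 5.70 to 9.51 in the F1, against 10.1 and 17.1 in the F2. COL1A2 of this list overlapped between the groups, at 0.871, 0.851 and 0.901 in the F1 against 0.964 and 0.638 in the F2. DCN overlapped too, while LUM and FBN1 were higher in both F2. CD3E, a T cell marker, was measured only in the F2, the endothelial markers CDH5 and SELE were measured on no array, and neither was HBB, the hemoglobin chain that marks red blood cells. Of 5 oocyte markers only ZP3 was measured on all 5 arrays, and GDF9, ZP4 and NLRP5 were measured on none. The part of these cell type markers in the results below was not tested.

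PTGS2 was measured in 1 of the 5 follicles. Its signal was -0.000612, -0.00279 and 0.00678 for F1 replicates 1, 2 and 3, with 0.00744 and 0.0320 for F2 replicates 1 and 2. Only F2 replicate 2 was well above background, where the signal was 1.92 times the lowest measured signal of that array and higher than that of 9.89% of the probes measured there. In every F1 and in the other F2 the transcript was not detectable with this probe, and those 4 values have no order among themselves. Because PTGS2 did not pass the filter on weak probes, which asks for every array of a group, it was not tested between F1 and F2, and no fold is given, since 4 of its 5 signals are background.

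TNFAIP6 was greater in each of the 3 F1 than in both F2, and it varied widely among the F1. Its signal for F1 replicates 1, 2 and 3 was 1.04, 0.151 and 1.14, then -0.00469 in F2 replicate 1, where it was not well above background, and 0.0319 in F2 replicate 2. F1 replicate 2 therefore stood apart from the others of its group, being exceeded 6.85-fold by F1 replicate 1 and 7.55-fold by F1 replicate 3, and it was 4.74-fold above F2 replicate 2. With F2 replicate 1 set at the lowest measured signal of its array, the F1 were at least 26.2-fold higher. The log2 difference F1 minus F2 was 6.64 ± 1.55 (SE, limma adjusted p = 0.0435), which counts the unmeasured F2 at a floor of 0.001 of the GAPDH median. This call needed most of the follicles: the limma adjusted p was 0.117 without F1 replicate 1, 0.109 without F1 replicate 3, 0.301 without F2 replicate 1, where the log2 difference was 4.14, and 0.0612 without F2 replicate 2, and it was 0.0240 without F1 replicate 2. With the replicate number as a block it was 0.101.

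VCAN was greater in every F1 than in both F2, with a spread inside each group that was smaller than the difference between them. Its signal was 4.08, 2.41 and 2.49 for F1 replicates 1, 2 and 3, against 0.236 and 0.409 for F2 replicates 1 and 2, and all 5 values were well above background. The lowest F1 exceeded the highest F2 by 5.90-fold. The group means were 2.99 ± 0.945 (SD, n = 3) and 0.322 ± 0.122 (SD, n = 2), and the log2 difference was 3.22 ± 0.39 (SE, 95% confidence interval 2.28 to 4.17, limma adjusted p = 0.00493), a 9.35-fold difference. Leaving out F2 replicate 1 gave a log2 difference of 2.83 and a limma adjusted p of 0.105, and leaving out any other follicle gave values between 0.00802 and 0.0428. In RNA of a whole wall, fewer cells that express versican and less versican RNA per cell cannot be told apart. The granulosa marker sum given above, of genes that the study chose on these arrays, was also higher in every F1. The part of that sum in the difference was not tested.

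FOS did not separate the groups. Its signal was 0.325, 2.83 and 1.09 for F1 replicates 1, 2 and 3, against 0.785 and 6.85 for F2 replicates 1 and 2, all well above background. The highest and the second-highest signal lay in different groups, F2 replicate 2 and F1 replicate 2, and the lowest was in F1 replicate 1. The F1 averaged 1.41 ± 1.28 (SD, n = 3) against 3.82 ± 4.29 (SD, n = 2), so the F2 mean was the higher, although FOS is on the study's list of genes relatively high in the F1. The log2 difference F1 minus F2 was -1.21 ± 1.16 (SE, limma adjusted p = 0.519). When F2 replicate 2 was left out the log2 difference turned to 0.35 (limma adjusted p = 0.878), and leaving out any other follicle placed it between -2.77 and -0.40.

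**Figure D1:**
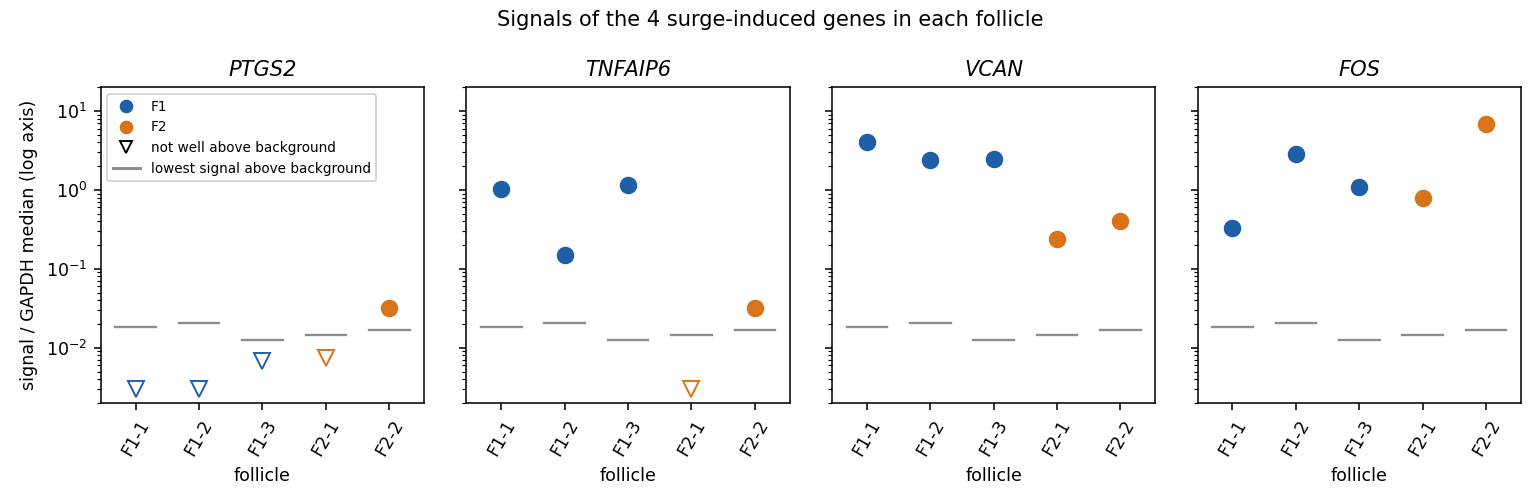
Signal of PTGS2, TNFAIP6, VCAN and FOS relative to the GAPDH median on a log axis, with 1 point for each follicle (F1 in blue, F2 in orange), grey bars for the lowest signal well above background of each array, and open triangles for signals not well above background, which are drawn at 0.003 where they were lower. VCAN separates the groups, TNFAIP6 separates them with F1 replicate 2 at 0.151, FOS overlaps, and PTGS2 is measured only in F2 replicate 2 at 0.0320.

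Of the 3 genes that could be tested, 2 passed a limma adjusted p of 0.05, both higher in the F1. TNFAIP6 was measured in 3 F1 and 1 F2, so it entered the test through the F1 alone, where it is high. With a filter that asks for every array of both groups, TNFAIP6 could not be tested. VCAN passed with that filter (limma adjusted p = 0.000381). Over all 5528 tested probes 11.5% passed, and 6.39% passed with a higher signal in the F1. Every F1 lay above both F2 in 2 of the 3 tested genes, against 33.4% of all tested probes, and 0 of the 3 had every F1 below both F2, against 15.7%. In either direction the groups did not overlap in 49.2% of all tested probes, so separation alone was common on these arrays. TNFAIP6 and FOS are also on a list, of genes relatively high in the F1, that the study chose for large differences between any 2 follicles of these same arrays, so their differences between follicles are not independent evidence. The median log2 difference of all tested probes was 0.27 with GAPDH scaling, and it was 0.06 with arrays scaled to their 75th percentile; with that scaling VCAN was 3.01 (limma adjusted p = 0.00442), TNFAIP6 was 6.58 (limma adjusted p = 0.0587) and FOS was -1.42 (limma adjusted p = 0.448).

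The spread within a group set FOS apart from VCAN. FOS differed 8.70-fold between the highest and the lowest F1 and 8.72-fold between the 2 F2, where the median over all tested probes was 1.59-fold and 1.32-fold. These ratios were larger than those of 99.8% of the tested probes within each group, and 0 of the other tested probes had ratios as large as FOS in both groups. That limit was set by the ratios of FOS itself. At ratios of at least 5 in both groups there were 3 tested probes, FOS among them. The study had also listed FOS for a large difference between follicles of these arrays, so its high rank is not independent evidence. TNFAIP6 spread 7.55-fold among the F1, more than 99.6% of the tested probes, and at least 2.20-fold between the F2. VCAN, in contrast, spread 1.69-fold among the F1 and 1.73-fold between the F2, larger than 60.2% and 80.8% of the tested probes. For these ratios, signals under the lowest measured signal of an array were raised to it, and with 1 array for each follicle the spread of the follicle and of the array cannot be told apart.

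**Figure D2:**
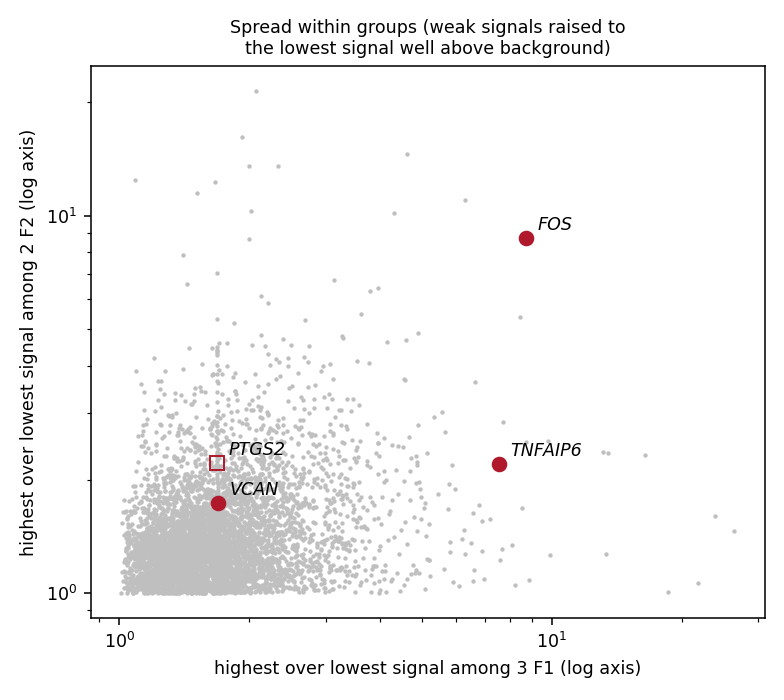
Ratio of the highest to the lowest signal among the 3 F1 (x axis) and between the 2 F2 (y axis), both on log axes, for all tested probes (grey) and the 4 genes (red, with PTGS2 as an open square because 4 of its 5 signals were set to the lowest measured signal of the array). FOS lies at 8.70 and 8.72, away from most tested probes on both axes, TNFAIP6 lies far out on the F1 axis, with an F2 ratio of at least 2.20, and VCAN lies inside the main cloud.

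The genes nearest to each gene in their pattern over the 5 follicles were found by the root mean square difference of log2 signals after each gene was centred on its own mean. For FOS, among 734 other named genes measured on all arrays, these were HOPX (0.66), IGFBP3 (0.84) and CCN2 (0.86), against a median of 1.57 over these genes. HOPX, a small homeodomain protein, had signals of 0.0350, 0.121 and 0.115 in the F1, against 0.113 and 0.370 in the F2. IGFBP3, a binding protein of insulin-like growth factors, had 0.120, 0.316 and 0.120 in the F1, against 0.270 and 0.707 in the F2. All of these genes were highest in F2 replicate 2 and second highest in F1 replicate 2, except CCN2, where F2 replicate 1 was slightly above F1 replicate 2. For VCAN the nearest were GPX3 (0.16) and GPX1 (0.18), which encode glutathione peroxidases that remove peroxides, and LOC338050 (0.30), against a median of 1.51. For TNFAIP6, with its unmeasured F2 raised to the lowest measured signal, they were RGN (0.60), SERPINF2 (0.85) and CITED1 (0.94), against a median of 2.49 over 735 genes. RGN, the calcium-binding protein regucalcin, was also lowest among the F1 in replicate 2, at 0.250 against 1.55 in replicate 1, and was at 0.0291 and 0.0209 in the F2. These likenesses rest on 5 follicles and were not tested, and the nearest genes lie under the median because they were picked as nearest. RGN, SERPINF2, CITED1 and GPX3 are also on the study's list of genes relatively high in the F1, chosen on these arrays.

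Other genes known to be induced in the follicle by the surge were taken as a list of 37, of which 18 had a probe and 12 could be tested. HAS2, the hyaluronan synthase of the expanding matrix, was not well above background in any follicle, with signals from -0.00242 to 0.00945. The same held for BTC, an EGF-like ligand, for the prostaglandin receptor PTGER2, for the chemokine CXCL8 and for EDN2, an endothelin. MMP1, an interstitial collagenase, was measured in F1 replicate 1 alone, at 0.0554. AREG, EREG, PGR, PTX3, ADAMTS1 and EGR1 are not analysed here, because their names could not be tied to a probe through a RefSeq accession. Of the single probes, 8799 have no such name, and some of them may measure these genes. The study's own list of genes relatively high in the F2, chosen on these arrays, holds ADAMTS1.

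Of the 12 tested genes of this list, 5 rose in the F2 and 0 in the F1 by limma adjusted p under 0.05. At the same threshold the background was 5.08% of all tested probes for the F2 and 6.39% for the F1. At an unadjusted limma p under 0.05 the counts were 8 and 0, but the share of all tested probes there was not computed. The list had a median log2 difference of -1.79 (F1 minus F2) against 0.27 over all tested probes. PTGES, the prostaglandin E synthase that acts directly after PTGS2, had signals of 0.0695, 0.121 and 0.0768 in the F1, against 0.913 and 0.701 in the F2 (9.25-fold, limma adjusted p = 0.00338). PLAT and PLAU, the tissue-type and urokinase-type plasminogen activators, exceeded the F1 by 8.39-fold and 4.31-fold in the F2 (limma adjusted p = 0.0167 and 0.0130). ANXA1, a phospholipid-binding protein, was 4.94-fold higher (limma adjusted p = 0.0111), and TIMP1, the inhibitor of metalloproteinases, also passed, with an F1 mean of 0.584 ± 0.0796 (SD, n = 3) against 10.9 ± 4.82 (SD, n = 2). These genes are not particular to ovulation, and the F2 also had the higher leukocyte marker sum given above. TIMP1 and OXT of this list are among the genes that the study chose on these arrays, so their values are not independent evidence. Without F2 replicate 1 only TIMP1 kept its call: the limma adjusted p was then 0.0944 for PTGES, 0.221 for PLAT, 0.0878 for PLAU and 0.160 for ANXA1. Without F2 replicate 2 it was 0.0857 for PLAT and 0.104 for ANXA1, and without F1 replicate 3 it was 0.0543 for PLAT.

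The remaining 7 tested genes of the list did not pass. STAR, the carrier of cholesterol into mitochondria, had 5.56, 3.14 and 5.33 in the F1, against 16.1 and 9.91 in the F2 (limma adjusted p = 0.0593). ADAMTS4, a protease that cleaves versican, had 0.246, 0.122 and 0.145 in the F1, against 0.133 and 0.605 in the F2 (limma adjusted p = 0.458), so its highest signal lay in F2 replicate 2, with F2 replicate 1 inside the range of the F1. IL6, a cytokine of the ovulatory response, was measured only in the F2, at 0.0361 and 0.0679, and was at least 2.91-fold higher there (limma adjusted p = 0.137). OXT, the oxytocin precursor made by luteinizing granulosa cells, had 0.689, 0.155 and 0.978 in the F1, against 4.24 and 0.384 in the F2 (limma adjusted p = 0.448), so F2 replicate 2 lay inside the range of the F1. CD44, the cell surface receptor of hyaluronan, had a log2 difference of -1.44 (limma adjusted p = 0.0824), and CEBPB (0.83) and MMP14 (-0.11) lay closer to the median of all probes.

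Among genes known to fall after the surge, all 11 with a probe, of a list of 15, could be tested. By limma adjusted p under 0.05, 10 passed with a higher signal in the F1, against 6.39% of all tested probes. Of these, FSHR, LHCGR, CYP19A1 and PLA2G1B were not measured in both F2 and entered the test through the F1 alone, where they are high. With a filter that asks for all 5 arrays, 7 genes could be tested and 6 passed, when 666 of all 4861 probes passed in either direction. This list holds genes that the study also chose on these arrays, so its count is a description. FSHR, CYP19A1, AMH, INHA and INHBA are also among the granulosa markers above, and CYP17A1, INSL3 and LHCGR among the theca markers. The count is therefore not separate from those marker sums. From genes of this kind, and from higher IGFBP5 in the F2, the study took the F1 as dominant and the F2 as subordinate follicles. It also measured FSHR, CYP19 and IGFBP5 mRNA by quantitative PCR. In other follicles, classed as healthy or atretic by their steroids, it located CYP19 and IGFBP5 mRNA by in situ hybridization. The part of a surge in the array values of this list was not tested. FSHR, the receptor of follicle-stimulating hormone, was measured in all F1 at 0.543 to 0.827 and in neither F2. LHCGR, the receptor through which the surge acts, had 0.0329, 0.0335 and 0.0352 in the F1 and stayed at background in both F2. The F1 were thus at least 2.18-fold above them (limma adjusted p = 0.000138). That test counts both F2 at the floor of 0.001 of the GAPDH median, so it holds no spread between them. CYP19A1, the aromatase that makes estradiol, had 18.5, 5.50 and 12.6 in the F1, against 0.00650, which was not well above background, and 0.0279 in the F2. The median log2 difference of the list was 4.89 against 0.27 over all tested probes. INHA and INHBA, the inhibin subunits, and TRIB2, a pseudokinase, were saturated in all 3 F1 and at least 29.6-fold, 18.3-fold and 60.1-fold higher there. PLA2G1B was at least 50.9-fold higher. ESR2, an estrogen receptor, missed the threshold, although every F1 lay above both F2, with 0.0703, 0.147 and 0.198 in the F1, against 0.0269 and 0.0618 in the F2 (limma adjusted p = 0.113). CYP17A1, AMH and INSL3 lost their call without F2 replicate 1, at limma adjusted p values of 0.0651, 0.0894 and 0.0843, and INSL3 also without F2 replicate 2, at 0.0675.

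**Figure D3:**
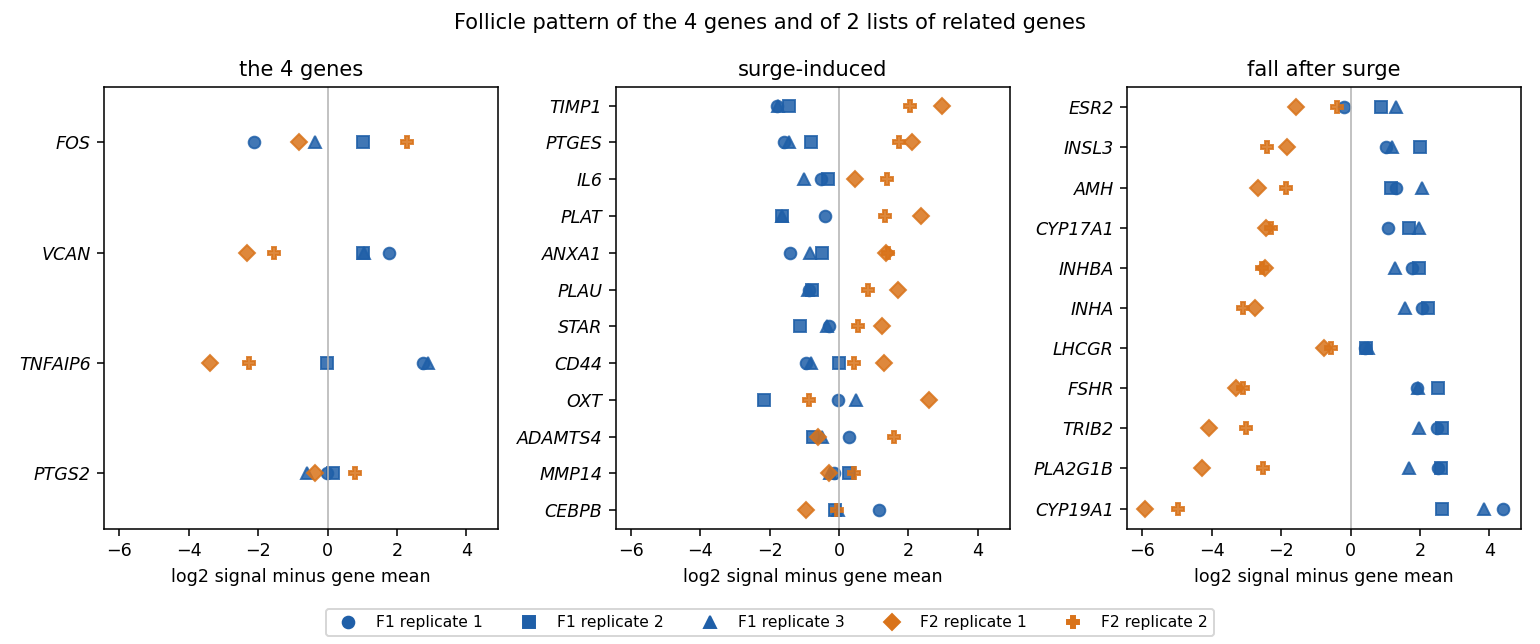
Log2 signal of each follicle minus the mean of the gene over the 5 follicles, with weak signals raised to the lowest measured signal of the array, for the 4 genes, the 12 tested surge-induced genes and the 11 genes known to fall after the surge (F1 in blue, F2 in orange, 1 symbol for each follicle). FOS, ADAMTS4 and IL6 are highest in F2 replicate 2, TNFAIP6 and VCAN lie with the genes higher in the F1, and CYP19A1 and FSHR are low in both F2.

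No follicle had all 4 genes at their highest. PTGS2 and FOS were highest in F2 replicate 2, TNFAIP6 in F1 replicate 3 and VCAN in F1 replicate 1, and the same follicles were highest with the 75th percentile, with quantile normalization and with normexp. F2 replicate 2 held the highest signal in 4 of the 12 tested surge-induced genes, and F2 replicate 1 in 7, against 21.9% and 7.56% of all tested probes. In F2 replicate 2 the measured PTGS2 and the highest FOS stood beside a TNFAIP6 signal of 0.0319, a VCAN signal of 0.409 and no measurable HAS2. In F1 replicate 2, where FOS was the highest of the F1, TNFAIP6 was the lowest of the F1 and PTGS2 was not detectable. In the F1 with the highest TNFAIP6 and VCAN signals, replicates 3 and 1, PTGS2 and HAS2 were not detectable either, and CYP19A1 was at 12.6 and 18.5. The 1 follicle with measurable PTGS2 thus had less TNFAIP6 and VCAN than every F1. The follicles with high TNFAIP6 and VCAN had no measurable PTGS2 with these probes. This contrast rests on 1 PTGS2 spot, 1.92 times the lowest measured signal of its array. There the PTGS2 signal of 0.0320 was close to the TNFAIP6 signal of 0.0319, which was also flagged as well above background.

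Genes of the prostaglandin pathway moved in both directions. Of a list of 22 genes beside PTGS2, 11 had a probe and 8 could be tested, of which 3 passed toward the F2 and 1 toward the F1, with a median log2 difference of -1.25. Over all tested probes 5.08% passed toward the F2 and 6.39% toward the F1. PTGES and ANXA1, described above, and PTGDS, a prostaglandin D synthase, were higher in the F2. PTGDS had 2.74, 3.43 and 1.60 in the F1, against 8.05 and 7.81 in the F2 (3.21-fold, limma adjusted p = 0.0412), and its limma adjusted p was 0.0966 without F1 replicate 1, 0.0551 without F1 replicate 3, 0.278 without F2 replicate 1 and 0.181 without F2 replicate 2. PLA2G1B, a secreted phospholipase that releases fatty acids, was the gene higher in the F1 (limma adjusted p = 0.00593) and is also on the study's list from these arrays. It was measured in 3 F1 and 1 F2, so it entered the test through the F1 alone. Among the receptors, PTGER4 was measured only in the F2, at 0.0529 and 0.0732 (at least 3.72-fold higher, limma adjusted p = 0.0775), PTGFR only in F2 replicate 1, at 0.0191, and PTGER3 in 1 F1 and 1 F2. PTGES3 (log2 difference 0.41), PTGIS (-0.81), the prostacyclin synthase, and SLCO2A1 (1.34), a prostaglandin transporter, did not pass.

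**Figure D4:**
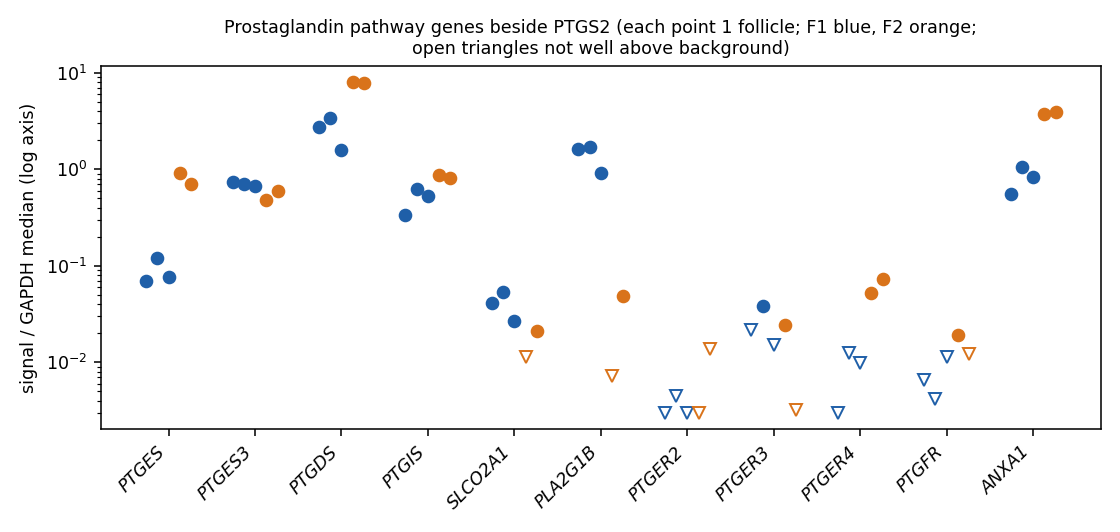
Signals of the 11 prostaglandin pathway genes with a probe beside PTGS2, relative to the GAPDH median on a log axis, with 1 point for each follicle (F1 in blue, F2 in orange) and open triangles for signals not well above background, drawn at 0.003 where they were lower. PTGES, PTGDS and ANXA1 lie higher in both F2, PLA2G1B lies higher in the F1, and the receptors PTGER2 and PTGFR are at or near background.

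The hyaluronan and proteoglycan matrix around VCAN was followed with 28 genes, of which 12 had a probe and 6 could be tested. By limma adjusted p under 0.05, 1 gene rose in the F2 and 0 in the F1, against 5.08% and 6.39% of all tested probes. At an unadjusted limma p under 0.05 these were 2 and 0, with no share of all tested probes computed. LUM, the small proteoglycan lumican and the same gene that is among the stromal markers, had 1.02, 1.62 and 0.896 in the F1, against 3.06 and 3.93 in the F2 (limma adjusted p = 0.0370). Its limma adjusted p was 0.112 without F1 replicate 1, 0.0809 without F1 replicate 3, 0.206 without F2 replicate 1 and 0.183 without F2 replicate 2. CD44 and ADAMTS4 are given above. The small proteoglycans BGN and DCN had log2 differences of -0.64 and -0.79 and did not pass, and neither did HYAL2, a hyaluronidase (0.21). The median of the 6 genes was -0.80, against 3.22 for VCAN. HAPLN1, BCAN, AMBP and SPAM1 were not well above background in any follicle, and ACAN, or aggrecan, was measured in F1 replicate 1 alone, at 0.0284.

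Of 25 immediate early genes beside FOS, only ZFP36 and CCN2 had a matched probe. ZFP36, an RNA-binding protein that shortens the life of cytokine mRNAs, had 0.250, 0.276 and 0.188 in the F1, against 0.404 and 0.825 in the F2 (log2 difference -1.30, limma adjusted p = 0.0861). CCN2, the connective tissue growth factor, had 1.05, 2.74 and 1.75 in the F1, against 2.82 and 5.83 in the F2 (log2 difference -1.24, limma adjusted p = 0.169). Each was highest in F2 replicate 2 and, among the F1, in replicate 2, the same 2 follicles as FOS. F2 replicate 2 was highest in 21.9% of all tested probes. In ZFP36 and CCN2, F2 replicate 1 lay above F1 replicate 2, whereas in FOS it lay below, at 0.785 against 2.83. Thus 0 of these 2 genes passed an adjusted p of 0.05 in limma, and with the 75th percentile 1 passed. Both had an unadjusted limma p under 0.05, higher in the F2, but the share of all tested probes at that threshold was not computed. JUN, EGR1 and ATF3 are not analysed here.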

How the data were processed

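The authors scanned 5 one-color arrays, 1 follicle each, and the deposited scanner files give for each spot a background-subtracted processed signal intensity, a mean and a background intensity, and flags (spot analysis version 9.5.3.1 in the file headers). In the authors' deposited table each value is the ratio of processed signal to the GAPDH median of the array; all 27483 values equalled that ratio within 0.001. From the scanner files, each processed signal was scaled by the GAPDH median of its array, anything under 0.001 was set to that floor, and F1 and F2 were compared on the log2 scale with limma 3.58.1 in R 4.3.3 and Benjamini-Hochberg adjustment over 5528 probes, those that either group measured on all of its arrays. Where a group was not measured throughout, a fold is a lower bound that sets each dim array at its lowest measured signal. Of 1415 RefSeq accessions, 1364 were matched to a symbol (ARS-UCD2.0 table, for names alone). The members and gene lists were chosen with earlier results of these data known. Of each list, genes that passed, up to 4 others with the largest differences and the defining genes of the surge were named, with the 3 nearest patterns of each measured gene; CEBPB, MMP14, HYAL2 and listed genes that could not be tested were named after their values were seen. The fit was checked on simulated data. Alternatives changed the scaling, background, floor, filter and variance model, blocked by replicate number, or left out a follicle. The number of arrays limits the precision.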

Additional observations from a re-analysis of the deposited data

How the results depend on the processing

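The log2 difference F1 minus F2 of PTGS2 was -3.03 with weak signals at the floor and was not tested; it was -0.84 with a floor of 0.01, -0.12 with normexp and -0.37 with signals raised to the lowest measured signal, an alternative chosen after seeing the data. With 4 of 5 signals at background these values follow the floor and measure no difference. TNFAIP6 missed the threshold with the 75th percentile (6.58), quantile normalization (6.66) and no filter (6.64). It ranged from 4.14 to 9.14 with a follicle left out, and was 2.57 with normexp. It could not be tested with the filter on all 5 arrays. VCAN missed the threshold with no filter (3.22, limma adjusted p = 0.0677) and ranged from 2.83 to 3.62 with a follicle left out. FOS passed with normexp (-1.10, limma adjusted p = 0.0145), where the prior degrees of freedom were infinite, and ranged from -2.77 to 0.35 with a follicle left out. Surge-induced genes that passed, 5 in all, were 2 with no filter, 8 with signals raised, and 1 to 5 with a follicle left out. Genes known to fall after the surge, 10, were 5 with the authors' deposited values and 6 with probes well above background on all 5 arrays, where fewer could be tested, and 7 to 10 with a follicle left out. Prostaglandin genes, 4, were 0 with no filter and 1 to 5 with a follicle left out. Matrix genes, 1, were 2 with normexp, with the filter on all 5 arrays and with signals raised, 0 with no filter and 0 with the replicate block, and 0 to 1 with a follicle left out. Immediate early genes, 0, were 1 with the 75th percentile, quantile normalization, the filter on all 5 arrays, the intensity trend and signals raised, and 2 with normexp. Over all probes 634 passed, against 214 with no filter, 344 without F1 replicate 1, 160 without F2 replicate 1 and 199 without F2 replicate 2, and 863 after scaling to the 75th percentile, 900 after quantile normalization, 888 with a floor of 0.01, 887 with the intensity trend and 894 with signals raised.

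With the replicate number as a block, TNFAIP6 was 6.13 (limma adjusted p = 0.101), VCAN 3.34 (0.0238) and FOS -1.27 (0.0652), and 578 probes passed. Deviations of same-numbered follicles from their group means correlated at 0.064 and 0.256 for numbers 1 and 2, and 2 pairs are too few to take the numbers as a pairing. The cause of these changes was not tested.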
